A study of Mus musculus with 12 samples.

Results

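The 732 mRNAs described here were recovered with a biotinylated microRNA, Mirlet7d, from MLE-12 cells, and each was also measurable in the input RNA. They were chosen from a deposited table of 1964 candidate transcripts of 1509 genes. A transcript was kept when its input level, multiplied by its length in kilobases, reached 0.4 reads per M reads of the library, which corresponds to 9.54 input reads. The 10 transcripts with an input of exactly 1 RPKM were left out, and for a gene with several transcripts the row with the highest pull-down RPKM was used. RPKM is the number of reads per kilobase of length and per M reads. The rule kept 960 transcripts, and the remaining 777 genes of the table had too few input reads or an input listed as exactly 1. The fold of a gene is its pull-down RPKM divided by its input RPKM. The table lists only transcripts with a deposited fold of at least 2.5, and the rule used both levels, so levels and folds are given as a description with no test.

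MLE-12 is a mouse cell line of lung epithelial origin. The cells received 25 nM of the biotinylated microRNA and were harvested after 48 h. RNA held through the biotin made up the pull-down library, and the input library came from RNA that had not gone through the capture. Each is a single library, so no difference between them has a replicate check, and a capture with a control microRNA was not analysed here. Another data type, ChIRP-seq, captures chromatin through probes against an RNA, here mature Mirlet7d, and also gave 1 peak list.

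Let-7 microRNAs pair through a short stretch near their 5′ end, the seed, with matching letters in target transcripts, and their best known role is to lower the output of those transcripts in the cytoplasm. They are abundant in differentiated epithelium and are known as restrainers of growth genes. MicroRNAs are also found in the nucleus, where they can meet unspliced transcripts and RNA made at promoters.

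The mature arms of Mirlet7d are shown because the search for a match in promoters starts from the seed of the 5p arm. The 3p seed was not searched for, and promoter windows were at hand for 601 of the 732 genes. Capitals mark the seed, bases 2 to 8. The letters are RefSeq's, on the minus strand of build GRCm38.p6, at chr13:48536078-48536099 for the 5p arm and chr13:48536024-48536045 for the 3p arm. Which arm carried the biotin is not given in the sources used here.
mmu-let-7d-5p: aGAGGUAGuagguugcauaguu
mmu-let-7d-3p: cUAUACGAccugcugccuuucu

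In DNA a match to the 5p seed reads CTACCTC, or GAGGTAG on the other strand. The next windows, of 29 bases each and from RefSeq build GRCm38.p6, show such letters in capitals in the promoters of Glod4, Rnmtl1 and Psmg4. The first pair is a single site read from both strands, since Glod4 and Rnmtl1 start 37 bases apart and run in opposite directions. Each window is written in the direction of its gene. The match begins 56 bases before the Glod4 start, 13 bases after the Rnmtl1 start and 123 bases before the Psmg4 start. The promoter tables from which they were taken lie at chr11:76243650-76243949 (minus strand), chr11:76243486-76243785 (plus strand) and chr13:34162714-34163013 (plus strand).
Glod4: cctggcgcgcgCTACCTCacccgagcgcg
Rnmtl1: cgcgctcgggtGAGGTAGcgcgcgccagg
Psmg4: gaaaaaggacaGAGGTAGttcagtgggtt

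The next sequences are promoters where a Mirlet7d ChIRP-seq peak was annotated, those of Bpgm and Cnnm2. Capitals mark the 50 bases after the start of transcription, and the 250 bases before it are in lower case. They are from RefSeq build GRCm38.p6, plus strand, at chr6:34476106-34476405 and chr19:46761359-46761658. Neither holds the 5p seed match.
Bpgm: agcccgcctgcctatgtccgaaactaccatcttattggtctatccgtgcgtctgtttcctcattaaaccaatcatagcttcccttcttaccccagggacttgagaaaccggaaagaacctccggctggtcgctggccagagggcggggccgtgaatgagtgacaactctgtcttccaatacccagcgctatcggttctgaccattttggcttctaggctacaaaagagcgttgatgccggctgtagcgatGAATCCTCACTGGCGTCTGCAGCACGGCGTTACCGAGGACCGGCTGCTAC
Cnnm2: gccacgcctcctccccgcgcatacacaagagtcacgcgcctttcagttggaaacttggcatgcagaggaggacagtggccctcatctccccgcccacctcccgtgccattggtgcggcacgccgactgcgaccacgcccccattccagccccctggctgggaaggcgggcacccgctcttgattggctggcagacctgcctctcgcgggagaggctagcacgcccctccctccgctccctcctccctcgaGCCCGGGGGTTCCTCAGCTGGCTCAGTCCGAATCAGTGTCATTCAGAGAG

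Across the 732 mRNAs the median input was 0.13 RPKM and the median pull-down 0.519 RPKM. Input levels ran from 0.001 to 778 RPKM and pull-down levels from 0.003 to 2874 RPKM, so the group holds both rare and very abundant RNA. The median fold was 3.67, with quartiles of 2.88 and 5.32, a lowest value of 2.50 and a highest of 47.4. Over all 1964 listed transcripts the median fold was 4.93. A fold of at least 5 was reached by 206 of the 732 mRNAs (28.1%), against 49.6% of all listed transcripts. A fold of at least 10 was reached by 48 (6.56%), against 26.7%. Since the choice of the mRNAs used the input, these shares only describe the group. Folds below 3 were the most crowded range, with 217 mRNAs (29.6%).

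**Figure D1:**
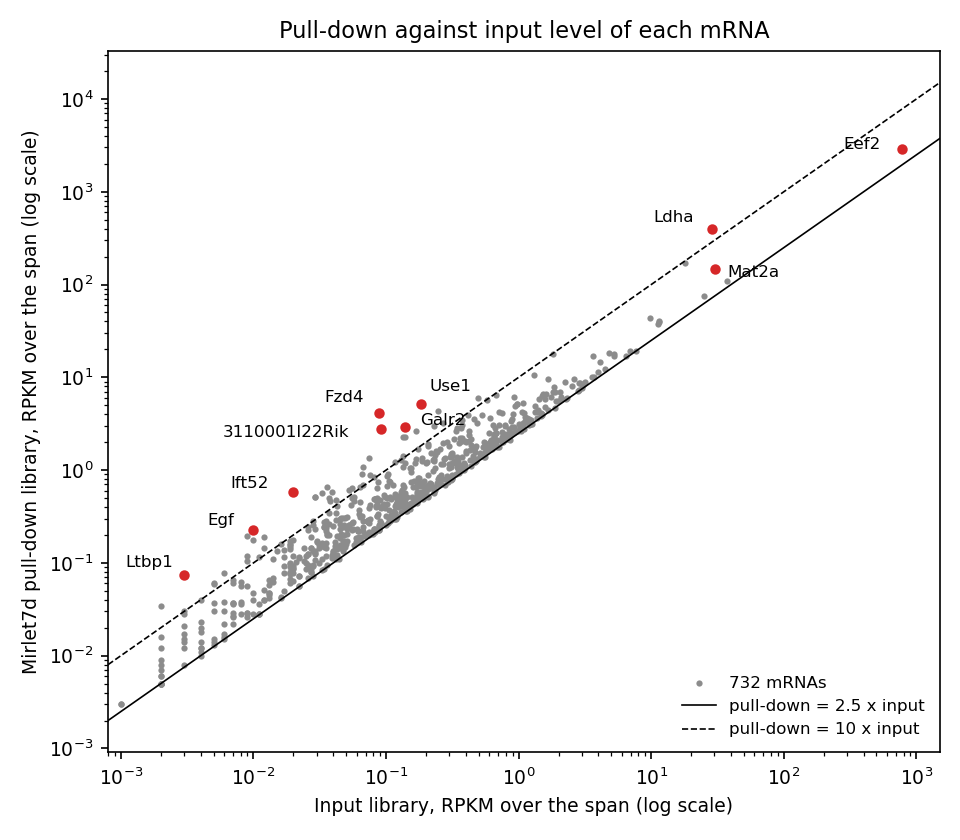
Each point is 1 of the 732 mRNAs, placed by its RPKM in the input library (x axis) and in the pull-down library (y axis), both on log scales. The lower line is the listing limit of 2.5-fold and the dashed line is 10-fold; most mRNAs lie near the lower line, and 48 reach the dashed line.

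The RPKM values are rounded to 3 decimals, but multiplied by length they fell on whole multiples of 1 read. For 240 of the mRNAs both read numbers could be recovered in this way. For those a 95% exact (Clopper-Pearson) interval of the fold was computed, which covers counting error only, since PCR copies cannot be told apart. The interval lay above the listing limit of 2.5 in 154 of 240 (64.2%), and in 64.2% of the 523 listed transcripts whose reads could be recovered. For the other mRNAs the range that rounding alone allows is given, and in 27 of all 732 that range reached below 2.5. Length in this table is the whole distance from start to end of a transcript, introns included, so a level is reads per kilobase of gene, not of spliced message. Overlapping genes share reads in such counting, and whether strand was used is not given in the sources used here.

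The highest fold belonged to a single signalling gene, Fzd4. Fzd4, a receptor for Wnt ligands and Norrin (chr7:96552877-96558620 in mm9), had 0.088 RPKM in the input and 4.17 RPKM in the pull-down. That is a fold of 47.4 with an interval from 27.1 to 92.5, from 12 input and 1007 pull-down reads. Of 5 listed WNT pathway genes Fzd4 was the only member with measurable input. Among 5 listed genes of the TGF-beta and BMP pathway, 4 had measurable input. For scale in these and later counts of listed genes, 732 of all 1509 genes in the table had measurable input. Ltbp1, which tethers latent TGF-beta to the extracellular matrix, had 0.003 RPKM in the input and 0.074 in the pull-down (24.7-fold, rounding range 21.0 to 29.8). The other members of that pathway stood near the listing limit. Acvr1b, a type I activin receptor, had 0.206 and 0.62 RPKM (3.01-fold). Acvr1c, a related receptor for nodal and activin-type ligands, had 0.006 and 0.017 RPKM (2.83-fold), and the BMP-inducible kinase Bmp2k had 0.119 and 0.32 RPKM (2.69-fold).

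Ligands and further receptors were also among the 15 highest folds. Egf, the precursor of epidermal growth factor, had 0.01 RPKM in the input and 0.229 in the pull-down (22.9-fold, rounding range 21.8 to 24.2). Galr2, a G-protein coupled receptor for the neuropeptide galanin, had 0.14 and 2.94 RPKM. Its fold of 21.0 rests on 10 input and 370 pull-down reads, with an interval from 11.3 to 44.2. Like Fzd4, it is a short gene, and its input lay just above the minimum.

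Among the 45 let-7 target genes of a hand-written list, 5 were in the table and 3 had measurable input. E2f6, a repressive E2F factor, had 0.085 RPKM in the input and 0.317 in the pull-down (3.73-fold), and Acvr1b and Acvr1c were the others. Their median fold was 3.01, none reached 5, and the median of all 732 mRNAs was 3.67.

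Zinc finger genes with Zfp names, most of which encode DNA-binding repressors, formed the largest of the groups examined. Of 397 genes of this list 43 were in the table and 28 had measurable input, against 732 of all 1509 listed genes. Their median fold was 3.97, with 12 at 5 or more and 3 at 10 or more. In the whole group of 732 mRNAs 28.1% reached 5 and 6.56% reached 10. Zfp809, known for silencing retroviral elements in embryonic cells, had 0.029 RPKM in the input and 0.511 in the pull-down (17.6-fold, rounding range 17.3 to 17.9). Zfp688 had 0.246 and 4.29 RPKM, from 18 and 553 reads (17.4-fold, interval 10.9 to 29.6). These and Zfp715, with 0.081 and 0.837 RPKM (10.3-fold), were the 3 that reached 10. Zfp28, with 0.043 and 0.408 RPKM, had a fold of 9.49 and a wide interval of 5.30 to 18.6 from 12 input reads. At the other end Zfp821 had 0.709 and 1.78 RPKM (2.51-fold).

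Transcription factors outside that group included 2 of the 15 highest folds. Ahr, the aryl hydrocarbon receptor, a ligand-activated transcription factor, had 0.036 RPKM in the input and 0.65 in the pull-down (18.1-fold, rounding range 17.8 to 18.3). Runx2, a factor best known from bone formation, had 0.01 and 0.175 RPKM (17.5-fold, rounding range 16.6 to 18.5). Both had more input reads than their neighbours in the order of folds, 31.8 for Ahr and 31.6 for Runx2.

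Chromatin genes numbered 8 of 10 listed, against 732 of all 1509 listed genes, with a median fold of 3.77. Setd6, a lysine methyltransferase, had 0.463 RPKM in the input and 3.52 in the pull-down from 34 and 455 reads, with an interval of the fold from 5.36 to 11.1. The nucleosome-binding protein genes Hmgn2 and Hmgn3 had folds of 3.99 and 4.02. Eed, a core subunit of Polycomb repressive complex 2, had 0.287 and 0.856 RPKM (2.98-fold), and Cbx3, a heterochromatin protein 1 gene, had 0.229 and 0.656 RPKM (2.86-fold).

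Genes of transcription elongation and of nuclear RNA processing were few. All 3 listed genes of RNA polymerase II elongation had measurable input. Ell3, an elongation factor, had 0.117 RPKM in the input and 1.23 in the pull-down (10.5-fold, interval 5.58 to 22.3, 10 input reads). Leo1, a PAF1 complex subunit, had 0.086 and 0.496 RPKM (5.77-fold), and Ell2, a subunit of the super elongation complex, had 0.048 and 0.202 RPKM (4.21-fold). Both listed genes of the nuclear exosome, the complex that degrades RNA from its 3′ end, were members too. Exosc3, a subunit of the exosome cap, had 0.209 and 1.90 RPKM from 20 and 320 reads (9.07-fold, interval 5.78 to 15.1). Mphosph6, an exosome-associated protein gene, had 0.135 and 0.694 RPKM (5.14-fold, interval 3.60 to 7.64). Mphosph10, whose product belongs to the U3 snoRNP that processes ribosomal RNA, had 0.029 and 0.516 RPKM (17.8-fold, rounding range 17.5 to 18.1).

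Splicing and mRNA-binding genes numbered 9 of 10 listed, where 732 of all 1509 listed genes had measurable input. These 9 stood lower, with a median fold of 2.83. Snrpc, a protein of the U1 particle, had 0.042 RPKM in the input and 0.288 in the pull-down (6.86-fold). Lsm8, which belongs to the ring on U6 RNA, had 0.391 and 2.06 RPKM (5.27-fold, interval 3.95 to 7.19). The other 7 lay below 5, among them Lsm4 with 3.18 and 8.99 RPKM (2.83-fold, interval 2.55 to 3.15).

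Genes of translation and metabolism were among the most abundant mRNAs, and the folds of such abundant mRNAs are the most tightly counted. Eef2, which encodes the elongation factor that moves the ribosome along mRNA (chr10:80639377-80645252), had 778 RPKM in the input and 2874 in the pull-down. Its 109092 input and 709534 pull-down reads gave 3.69-fold with an interval from 3.67 to 3.72. Eef2 held 40.2% of the input reads of all 732 mRNAs and 37.6% of their pull-down reads. Ldha, lactate dehydrogenase A of glycolysis (chr7:54102502-54110996), had 28.5 and 402 RPKM. Its fold of 14.1 (interval 13.7 to 14.5) was the only one of at least 10 among the 29 mRNAs with 1000 input reads or more. Mat2a, which makes S-adenosylmethionine, had 30.1 and 148 RPKM (4.91-fold, interval 4.77 to 5.06). Another 6 of the mRNAs with the highest pull-down levels ran from 37.7 RPKM for Zfp830 to 110.5 RPKM for Mrfap1. Ngfrap1, a neurotrophin receptor-associated gene, had 24.9 and 74.6 RPKM (interval 2.80 to 3.21). The others were Mrfap1 (2.97-fold), Zfp830 (3.35-fold), Mrpl33 (4.47-fold), Sfi1 (3.55-fold) and the antiproliferative gene Btg2 (3.40-fold). The intervals or rounding ranges of these 6 did not overlap that of Ldha.

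Ribosomal protein genes were few in the table. Of 5 listed cytosolic ones 3 had measurable input. Rpl37 had 0.166 RPKM in the input and 1.21 in the pull-down (7.26-fold, interval 3.82 to 15.5), while Rpl30 had 1.16 and 3.65 RPKM (3.15-fold, 2.46 to 4.08) and Rps12 0.393 and 1.05 RPKM (2.66-fold, 1.61 to 4.62). For Rpl30 and Rps12 the interval reached below the listing limit. Of 8 mitochondrial ones 4 had measurable input, with a median fold of 4.68. Mrps11, of the small mitochondrial subunit, had 0.255 and 1.68 RPKM (6.58-fold, interval 5.05 to 8.72). The respiratory complex I genes Ndufa11 and Ndufs5 had folds of 4.81 (4.10 to 5.68) and 3.73 (2.84 to 4.98).

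Membrane transport and trafficking genes spread over the whole range. Solute carriers made up 50 listed genes, of which 14 had measurable input, with a median fold of 3.70. Of all genes listed, 48.5% had measurable input. Slc35f5 had 0.372 RPKM in the input and 3.45 in the pull-down (9.26-fold) on 308 input reads. The vesicular glutamate transporter gene Slc17a7 had 0.034 and 0.279 RPKM (8.21-fold), and Slc38a9, a lysosomal amino acid sensor, had 0.022 and 0.117 RPKM (5.32-fold). Use1, a SNARE protein of the endoplasmic reticulum (chr8:73891117-73893631), stood far above these with 0.183 and 5.20 RPKM, a fold of 28.4 and an interval from 15.7 to 57.1 on 11 input reads. Stx1a, a syntaxin of regulated exocytosis, had 0.017 and 0.115 RPKM (6.76-fold), and the coatomer gene Copz2 had 0.315 and 1.53 RPKM (4.84-fold).

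Genes of the cytoskeleton and of intraflagellar transport spread from the listing limit to high folds. Ift52, a component of intraflagellar transport, had 0.02 RPKM in the input and 0.577 in the pull-down (28.9-fold, rounding range 28.1 to 29.6, on 13.7 input reads). The other Ift genes with measurable input, looked up after the values were seen, had lower folds, with 4.51 for Ift57, 4.00 for Ift20 and 3.15 for Ift81. Dync1i1, a dynein intermediate chain gene, had 0.002 and 0.034 RPKM, and rounding alone allowed its fold of 17 to lie between 13.4 and 23. Kif21a, a kinesin gene, had 0.005 and 0.059 RPKM (11.8-fold, rounding range 10.6 to 13.2). Of 16 listed cytoskeleton genes 7 had measurable input, and 2 of these reached 10, against 6.56% of all 732 mRNAs. Stard13, which encodes a protein with a lipid-binding START domain, had 0.929 and 6.19 RPKM (6.66-fold) on 3382 input reads. Mpp5, a scaffold of epithelial polarity, had 1.25 and 3.49 RPKM (2.80-fold).

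Protein turnover, genome maintenance and immunity had mostly moderate folds. Their counts of listed genes stand beside 732 of all 1509 genes with measurable input. Ubiquitin genes numbered 10 of 17 listed, with a median of 2.94, the lowest among them being the ligase gene Rnf25 at 1.25 and 3.12 RPKM (2.50-fold, interval 2.16 to 2.90). Psmg4, a proteasome assembly chaperone gene, had 0.028 and 0.283 RPKM (10.1-fold, rounding range 9.91 to 10.3). DNA replication and repair had 8 of 9 listed genes, with a median of 4.08, led by the checkpoint clamp gene Rad9b (0.019 and 0.173 RPKM, 9.11-fold). Xrcc5, the Ku80 gene of DNA end joining, had 0.045 and 0.187 RPKM (4.16-fold). Innate immunity had 7 of 20 listed genes and a median of 3.03. The death receptor gene Tnfrsf25 (6.78-fold, interval 4.46 to 10.7) and the interleukin 18 inhibitor Il18bp (6.69-fold, 4.41 to 10.6) led them. The RNA sensor genes Tlr3 and Ifih1 followed at 3.64 and 3.03.

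**Figure D2:**
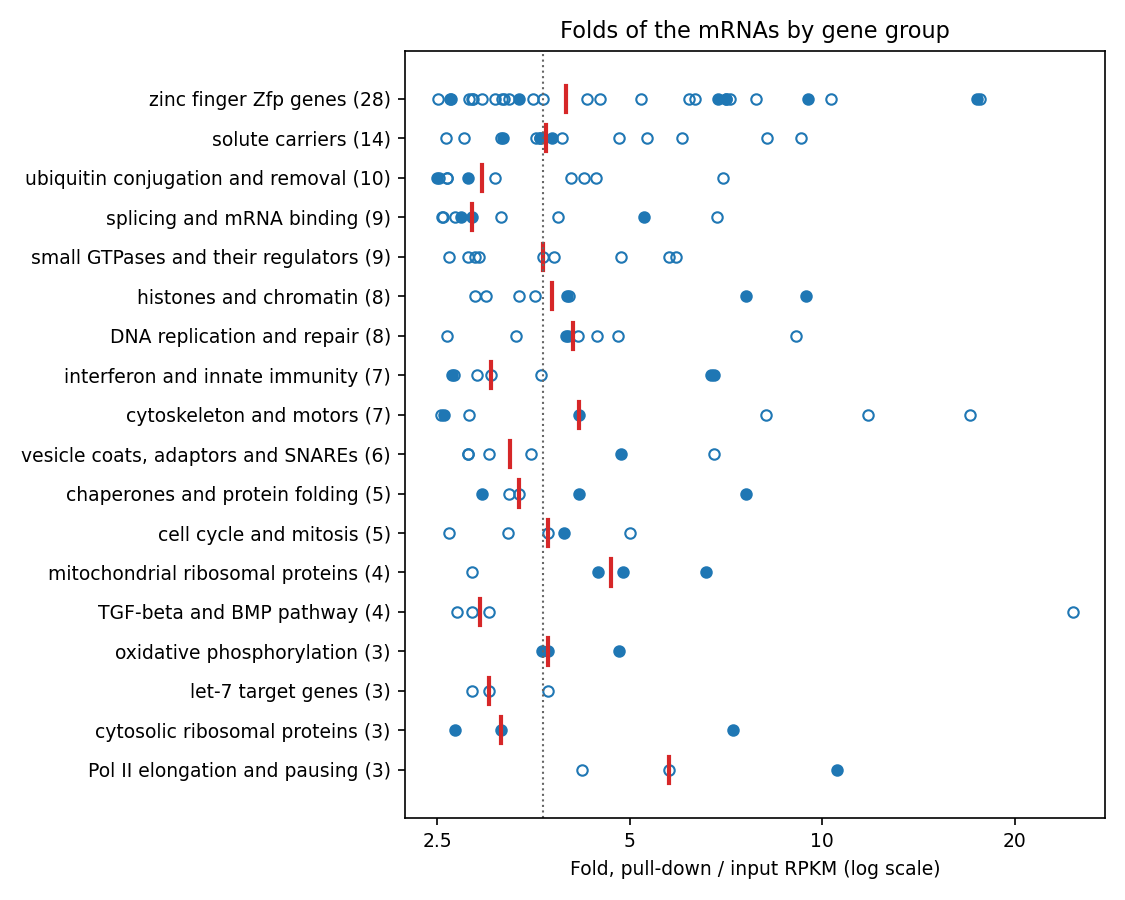
Each circle is the fold of 1 mRNA (x axis, log scale) in the gene group named on the y axis, with the number of its mRNAs in parentheses and groups under 3 left out. Filled circles have recovered reads, red bars are group medians, and the dotted line is the median of all 732 mRNAs, 3.67; the group medians lie between 2.83 and 5.77.

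Cell type markers were looked at in the same way, although a list limited to enriched transcripts cannot show whether the cells express the rest. Sox9, a factor of lung epithelial progenitors, had 0.227 RPKM in the input and 1.29 in the pull-down (5.68-fold, interval 3.89 to 8.56). Lamp3, found in mature type II cells, had 0.04 and 0.132 RPKM (3.30-fold). Of 26 lung epithelium markers 3 were listed and 2 had measurable input. Of 15 markers of fibroblasts and mesenchyme 4 were listed and 0 had measurable input. For endothelium 2 of 11 were listed and 1 was measurable, and for immune cells 1 of 14, also measurable. Among all 1509 listed genes 732 had measurable input, and no cell type is read from such small counts. The endothelial receptor gene Tek had 0.005 and 0.06 RPKM (12-fold, rounding range 10.8 to 13.4) and the macrophage receptor gene Mrc1 0.004 and 0.02 RPKM (5.00-fold), both close to the lower end of the input range. Altogether 146 of the 732 mRNAs belonged to at least 1 of 30 lists.

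The fold was tied to the number of input reads. With fewer than 15 input reads the median fold of 107 mRNAs was 6.76 and 23.4% reached 10, whereas among the 222 with 100 to 1000 reads the median was 3.01 and 0.450% reached 10. The 29 mRNAs with 1000 reads or more had a median of 3.24. Of the 48 mRNAs with a fold of at least 10, 45 had fewer than 50 input reads, and their median was 14.2. For 20 of the 48 both read numbers could be recovered. The interval reached below 10 in 12 of these 20, all of which were picked for a fold of at least 10. The 777 other genes of the table had a median fold of 8.33 on a median of 1.99 input reads. Spearman's rank correlation between fold and input reads was -0.45 over the 732 mRNAs, a description in which both axes share the input count and the listing limit. 3110001I22Rik, the member with the next highest fold after Fzd4, illustrates the low end. It had 0.091 RPKM in the input and 2.80 in the pull-down, or 14 and 763 reads, and a fold of 30.8 with an interval from 18.3 to 56.9.

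**Figure D3:**
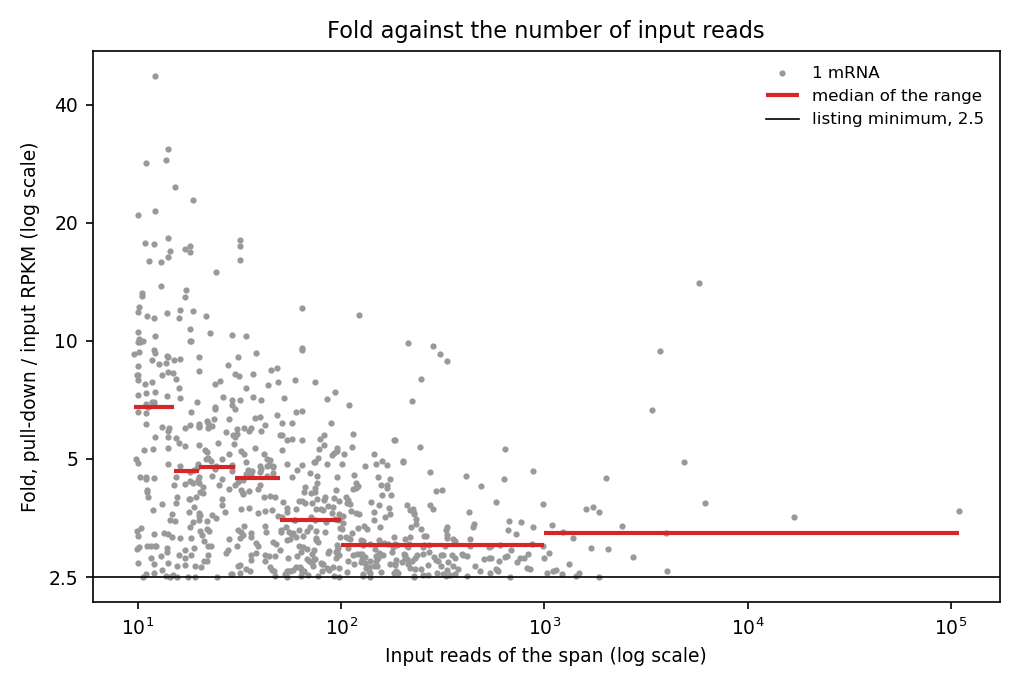
Each point is 1 mRNA, with the input reads of its span on the x axis and its fold on the y axis, both on log scales. Red bars are medians of ranges of input reads and fall from 6.76 below 15 reads to 3.01 between 100 and 1000 reads; the black line is the listing limit of 2.5.

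At the input minimum itself, the members just inside were Sema6d (9.60 reads, 9.29-fold), Mrc1 (9.79 reads, 5.00-fold) and Spdya (9.83 reads, 3.27-fold). The genes just outside were Rgs3 (9.54 reads, 13-fold), Pcbd2 (9.44 reads, 3-fold) and Themis (9.26 reads, 7.67-fold). Both sides covered similar ranges of fold.

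Several transcripts passed the input minimum in 164 of the genes. Their folds mostly coincided, with a median ratio of highest to lowest of 1.01 and 40 genes at identical values, and the ratio exceeded 1.5 in 10 genes. The widest ranges were those of Ltbp1 (6 to 24.7), the semaphorin gene Sema6d (2.67 to 9.29) and Asph, an aspartate hydroxylase gene (3.09 to 9.72). Because every transcript was counted over its whole span, the reads of an inner span can be subtracted from those of a longer span that contains it. That was possible for 74 genes and left at least 10 input reads outside the member's span in 13, also after allowing for rounding.

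Within those 13 genes the reads were unevenly placed. At Ltbp1 the member's span covered 55.0% of the longer one and held 23.6% of its input reads but 96.9% of its pull-down reads, so the rest had a fold of 0.24 (rounding range 0.09 to 0.45). The member's span of Sema6d, 9.95% of the longer one, held 23.2% of the input reads and 80.8% of the pull-down reads (9.29-fold inside, 0.67 outside). For Asph, with 31.1% of the span, the shares were 22.9% and 68.3% (9.72-fold inside, 1.34 outside). The pull-down reads of these genes thus lay mainly within the inner spans. Among the 10 other genes, chosen after their values were seen, the X-linked guanine nucleotide exchange factor gene Dock11 had 3.66 inside and 0.08 outside, and Kank1 had 3.38 and 1.43. Btbd11 stayed above the listing limit outside as well (7.02 and 4.20), and Pls3, a plastin gene, was the only one lower inside (3.67 and 5.47). Over the 13 genes the median fold was 4.13 inside and 1.34 outside, and the outside fold was below 2.5 in 11. The rule, which takes the highest pull-down RPKM, favours the inner span, so the direction of this difference is partly fixed by the choice. The minimum of 10 outside input reads also favours low outside folds. Among genes it left out, Ldha (14.1 inside, 81.3 outside) and Rph3al (5.32 and 9.27) were higher outside. Msi1 (4.79 and 0.06) and Vipas39 (3.38 and 0.10), also left out, were lower outside. The 13 genes therefore do not show how often the inner span has the higher fold.

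**Figure D4:**
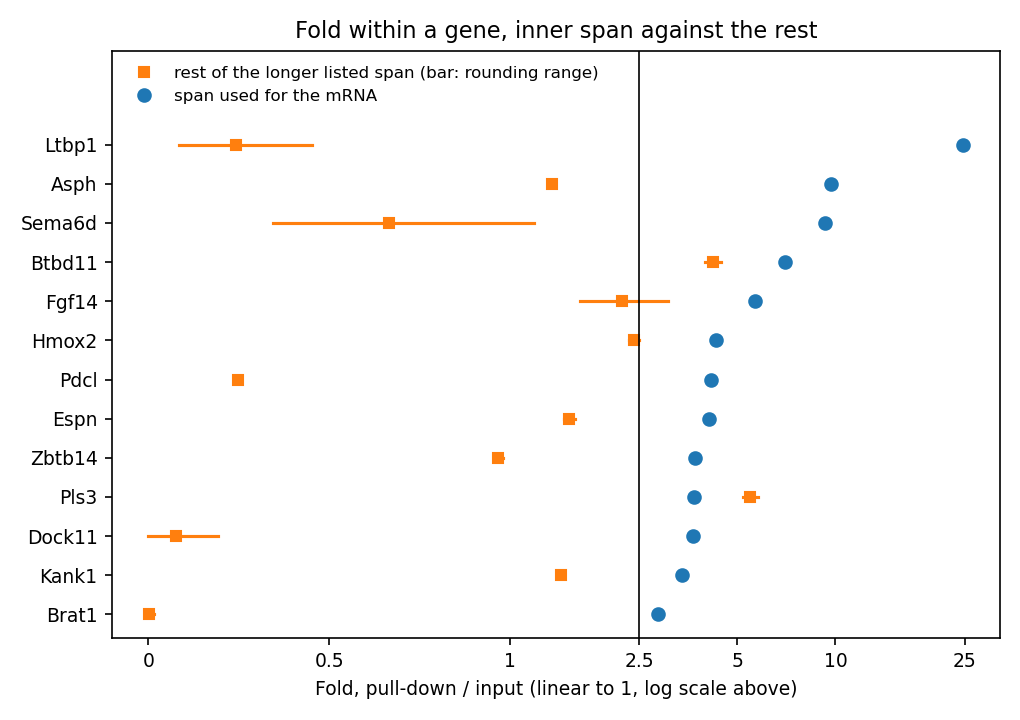
For 13 genes (y axis), the fold of the span used for the mRNA (circles) and of the rest of a longer listed span (squares, with the range that rounding allows) on an x axis that is linear up to 1 and logarithmic above. The circle lies right of the square in 12 of 13 genes, Pls3 being the exception, and the vertical line is the listing limit of 2.5. Genes below the minimum of 10 outside input reads are not shown, and some of them were higher outside.

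ChIRP-seq gives a readout that played no part in the choice of the mRNAs. The deposited peaks (mm9) were linked to the nearest gene by the authors, at any distance, and carry the authors' score. Of the 732 mRNAs 121 were the nearest gene of at least 1 peak (16.5%, 95% exact interval 13.9 to 19.4%), against 90 of the 777 other genes of the table (11.6%, 9.42 to 14.04%). Among the protein-coding genes of the reference table the share was 12.7% (12.3 to 13.2%), an interval apart from that of the mRNAs. Peaks were matched to these reference genes by RefSeq symbol or synonym, but to the genes of the mRNA table by deposited name. The effect of this unlike matching was not tested. Within 10 kb of the start site the shares were 8.20% (60 mRNAs), 5.28% and 6.5%. A promoter peak was annotated at 18 mRNAs (2.46%, 1.46 to 3.86%), at 1.29% of the other genes and at 1.67% of protein-coding genes. A peak lay inside the span of 79 mRNAs (10.8%, 8.64 to 13.3%) and of 46 other genes (5.92%, 4.37 to 7.82%), against 8.28% of all genes of the table. For a peak inside the span the intervals of the mRNAs and the other genes of the table were apart, and for the nearest-gene, 10 kb and promoter counts they overlapped. No test of these differences was run.

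By gene length the nearest-gene shares were as follows. For spans above 40746 bases 51 of 251 mRNAs had a peak (20.3%, 15.5 to 25.8%) and 25 of 252 other genes (9.92%, 6.52 to 14.3%). Between 13206 and 40746 bases the shares were 14.02% and 12.5%, and below that range 15.0% and 12.3%. A peak inside the span was found in 15.9%, 6.07% and 9.74% of the mRNAs from the longest to the shortest range, and in 6.35%, 6.57% and 4.66% of the other genes. On chromosomes 6, 8, 11, 16 and 19, grouped because they were known to be rich in peaks, 60 of 169 mRNAs had a peak (35.5%, 28.3 to 43.2%) and 22.9% of 170 other genes. On the remaining chromosomes the shares were 10.8% and 8.40%. The part of expression level in these shares was not tested.

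The 165 peaks at the mRNAs fell into classes much as the whole list did. Introns held 68 (41.2%, against 42.6% of all peaks), intergenic positions 65 and promoters 18 (10.9%, against 9.45%), and the median score was 34.1 against 34.3. The median fold was 3.61 with a peak, 3.69 without and 3.11 at the 18 with a promoter peak. Peaks with the highest scores at these genes lay far from a start or on repeats, such as that of 260 at a distance of 939931 bases from Nxph1. Those nearest to Chst11, Pex2 and Myom2 were annotated on ribosomal RNA repeats.

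Among the mRNAs of highest fold Use1 and 3110001I22Rik had a peak close to their start. The Use1 peak, chr8:73890638-73891821 with a score of 77.1, was centred 113 bases from the start and annotated to exon 2 of 9. It covers the beginning of the span over which the 28.4-fold was counted. At 3110001I22Rik the peak, chr16:13672290-13673004 with a score of 42.9, lay in intron 1 of 5 at 534 bases. Both genes were chosen for this after their values were seen. A peak within 10 kb of the start was found at 60 of all 732 mRNAs (8.20%). No link between fold and peaks is read from the 2 genes.

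Folds at the 18 genes with a promoter peak ran from 2.62 to 17. The promoters of Bpgm and Cnnm2 printed above were matched to the peaks by gene name, since the builds differ. Lsm4 had a peak of 58.3 at a distance of -308 bases. Bpgm, the bisphosphoglycerate mutase gene of red cell glycolysis, had one of 54.9 at 46 bases, with 0.905 RPKM in the input and 4.03 in the pull-down (4.46-fold). Cnnm2, a magnesium homeostasis gene, had one of 50.3 at -200 bases, with 0.261 and 0.714 RPKM (2.74-fold). 2810428I15Rik, the imprinted gene Mest and Fam71f1 followed with 49.2, 43.0 and 41.5, at -247, -323 and -70 bases and folds of 2.62, 3.95 and 5.70. The next score, 41.0 at 67 bases, belonged to Dync1i1, the gene with the fold of 17.

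The noncoding candidates of the same pull-down often lay within these genes. A listed ncRNA overlapped the span of 226 of the 732 mRNAs (30.9%, 95% exact interval 27.5 to 34.4%), of 74 of the 777 other genes (9.52%, 7.55 to 11.8%) and of 19.9% of all 1509 genes. The ncRNA table comes from the same libraries and the same reads can stand in both, so this is no separate observation of binding. Such reads can also help a gene reach the input minimum, so the share can be tied to the choice of the mRNAs. For promoter-associated ncRNAs the shares were 14.9% (109 mRNAs) and 5.53%. The 226 mRNAs with any listed ncRNA had a median of 104 input reads and the rest 42.2. The part of depth in the difference was not tested. The difference was present in each range of span, for example 24.7% and 13.6% below 13206 bases and 32.7% and 7.14% above 40746 bases.

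The median fold was 3.66 with an overlapping ncRNA and 3.67 without. Between the fold of an mRNA and the median fold of its ncRNAs Spearman's rank correlation was 0.05 over the 226 genes, which share libraries. Sfi1, a centrin-binding protein gene, overlapped 12 listed ncRNAs, the most of any member, and the most abundant of these had 574 RPKM in the input and 2482 in the pull-down on the separate scale of the ncRNA table. Sfi1 itself had 11.5 and 40.9 RPKM (3.55-fold). Commd3, a gene of the COMMD family, overlapped 7, of which the most abundant had 0.84 and 42.2 RPKM, while the mRNA had 1.85 and 7.81 RPKM (4.22-fold).

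Small RNA genes lie inside some of the hosts. By the RefSeq table (GRCm38.p6, used for neighbourhood only) 50 of the 729 mRNAs matched to a protein-coding gene contained a snoRNA or miRNA gene (6.86%, 95% exact interval 5.13 to 8.94%), against 16 of 776 other genes (2.06%, 1.18 to 3.33%) and 4.64% of protein-coding genes. Of the 50, 21 held a snoRNA gene and 32 a miRNA gene. Eef2 holds Snord37. Rabggtb, a subunit gene of the enzyme that prenylates Rab proteins, holds Snord45b and Snord45c and had 1.81 RPKM in the input and 17.9 in the pull-down (9.89-fold). Rpl37 holds Snord72, Snx5 holds Snord17, Copz2 holds Mir152, Mest holds Mir335 and Tango2, with a fold of 6.47, holds Mir185. The median fold was 3.59 with such a gene inside and 3.67 without. Whether the reads of a host came from the small RNA was not tested. Such reads would also count toward the input minimum that chose the mRNAs.

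Gene starts that face each other were found at 109 of 601 mRNAs with a RefSeq promoter entry (18.1%, 95% exact interval 15.1 to 21.5%). Counted was a start on the opposite strand, head to head within 1000 bases. The share was 12.4% (9.89 to 15.4%) among the other genes of the table and 13.2% among protein-coding genes. Median folds were 3.63 with and 3.66 without such a neighbour. In 5 pairs both neighbours were members. Glod4, a glyoxalase-domain gene, had 0.033 RPKM in the input and 0.566 in the pull-down (17.2-fold), and Rnmtl1, a ribosomal RNA methyltransferase gene of mitochondria, had 0.243 and 1.55 RPKM (6.38-fold). Pex13, a peroxisomal import gene, had 0.037 and 0.498 RPKM (13.5-fold), and its neighbour Pus10, a pseudouridine synthase gene, had 0.076 and 0.885 RPKM (11.6-fold). The partners Iqcb1 and Eaf2 had 5.12 and 5.17, Mgme1 and Snx5 3.15 and 2.79, and Polr3f and Dzank1 2.99 and 7.75. Partners were thus close in some pairs and far apart in others. The spans of Pex13 and Pus10, of Eaf2 and Iqcb1 and of Snx5 and Mgme1 overlap, so part of their reads may be shared. In all, 14 members in 7 pairs had overlapping spans, among them Ercc2 (2.59-fold) and Klc3 (12.2-fold).

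Promoters of the mRNAs held the let-7d-5p seed match in a share close to that of other genes. CTACCTC, read on both strands, was present in 29 of 769 windows of 300 bases (3.77%, 95% exact interval 2.54 to 5.37%), in 28 of 768 windows of the other genes (3.65%) and in 3.71% of the windows of protein-coding genes. Over all windows of the table the share was 3.85%. The 29 windows belong to 26 mRNAs, some of which have several starts, and the median fold of the 26 was 3.73. Windows of such a gene can share a site, as at Slc7a7 and Steap2. The interval treats windows as separate, so it is no interval for a share of genes or sites. Glod4 and Psmg4 had the highest folds among them, followed by Nacc2 (8.21) and Myo1a (8.17). The markers Lamp3 and the receptor gene Acvr1c also held a match. Median GC content was 60.0% in the windows of the mRNAs, 56.8% in those of the other genes and 56.3% in those of protein-coding genes. The quartile ranges overlapped widely, at 52.7 to 66.7%, 50.7 to 63.7% and 48.3 to 64.7%. Median numbers of CpG positions were 18, 10 and 13.

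**Figure D5:**
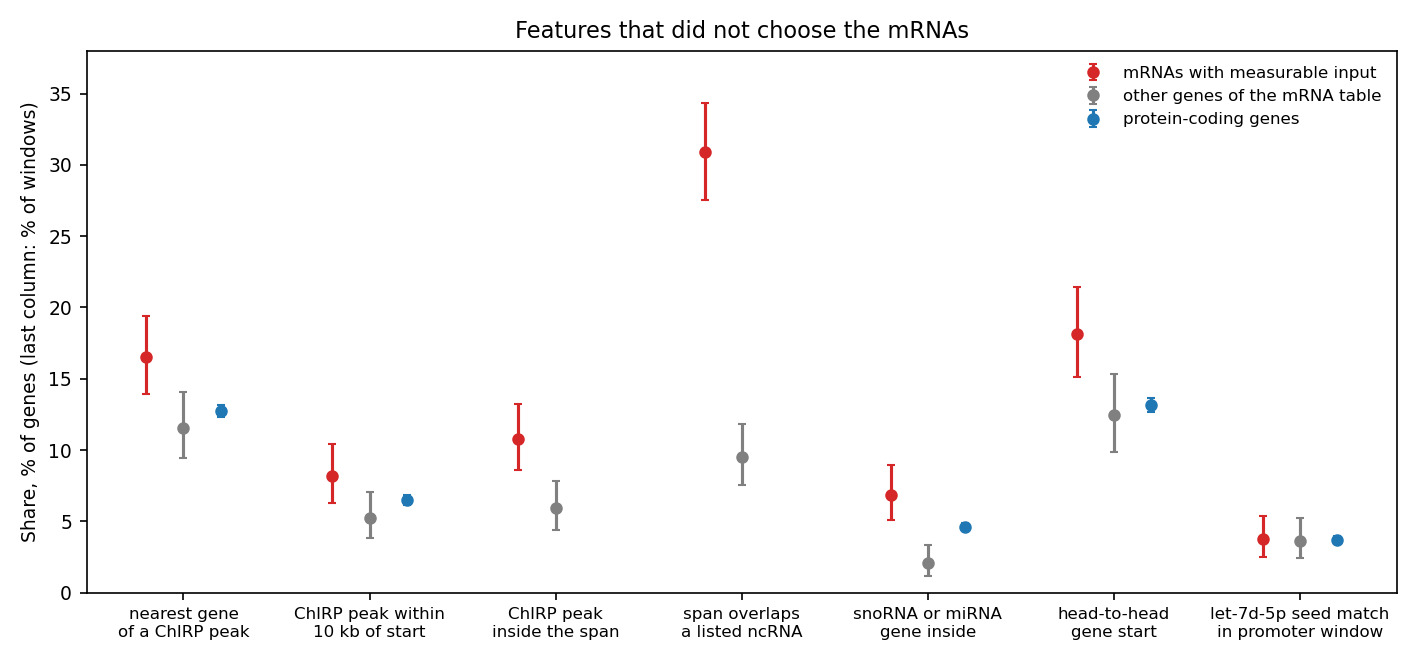
Shares (y axis, percent) with 95% exact binomial intervals for 7 features that are not part of the rule. They are given for the 732 mRNAs (red), the other 777 genes of the table (grey) and protein-coding genes (blue, where counted). Reads of a listed ncRNA or small RNA inside a span can count toward the input minimum. Those features may therefore not be independent of the choice of the mRNAs. The red and grey intervals are apart for a ChIRP-seq peak inside the span (10.8% and 5.92%), for overlap with a listed ncRNA (30.9% and 9.52%) and for small RNA genes inside (6.86% and 2.06%), and they overlap for the other 4.

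The mRNAs were spread over the chromosomes. Chromosomes 2, 7 and 11 held the most, 75, 72 and 59 (10.2%, 9.84% and 8.06%), and 8.14%, 9.27% and 7.35% of protein-coding genes.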

How the data were processed

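The study has 12 libraries, 1 per group, and the values used come from the Mirlet7d pull-down, its input and the ChIRP-seq peak list. Per the submitters' processing notes, bedtools 2.15, Bowtie2, FastQC, HOMER, Picard 1.119, SAMtools and Trimmomatic served the pull-down, and MACS is named besides for ChIRP-seq, all with genome mm9, in roles not given in the sources used here. The authors deposited RPKM rounded to 3 decimals and a fold, the ratio of pull-down to input, which differed from the recomputed ratio by at most 0.005. The peak score is the deposited value of the authors' peak caller, and it serves only to rank or filter peaks within the list. Folds were recomputed from the deposited RPKM. The step between RPKM values gave library sizes of 23.9 M (input) and 42.0 M reads (pull-down). Whole reads, with a tolerance of 0.15, resulted for all 181 input and 59 pull-down values whose decimals allowed the check. This recovery and the interval were tested on simulated data. An interval was given where rounding moved neither read number by more than 0.25. Length equalled end minus start in all 1964 transcripts. Gene names were matched to RefSeq for 730 of the 732 mRNAs, 729 of them to protein-coding genes. An ncRNA overlap needed at least 1 base. The members and gene lists were chosen with earlier results of these data known. Named are the 15 highest folds, the 10 highest pull-down levels and the 10 highest input reads, up to 4 genes per list, the 6 highest promoter peaks, the 3 genes on each side of the input minimum and the 3 widest transcript ranges. Of these, 1 gene is not reported here. Alternatives changed the input minimum, the row per gene, the fold's source, the inputs of exactly 1, the fold limit, and the peak and ncRNA criteria. Python 3 with pandas, numpy, scipy and matplotlib was used.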

Additional observations from a re-analysis of the deposited data

How the results depend on the processing

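Of 37 alternatives, 29 left a result within its limit and 8 moved it. The limit was a set ratio to the main value for counts and an interval of the main median for medians. Several of the 29 could not move. The number of mRNAs stays at 732 with another row per gene or with the deposited fold. The 154 intervals above 2.5 do not depend on the deposited fold either. The tally is therefore no measure of robustness. With an input minimum of 0.2 reads per M, about 4.77 reads, the mRNAs numbered 900, their median fold was 3.87 and 100 reached 10-fold. With a minimum of 0.8, about 19.1 reads, the mRNAs numbered 577, the median was 3.46 and 11 reached 10-fold. The number with a high fold therefore depends on that minimum. Lowering the limit from 10 to 5 gave 206 mRNAs. The 121 mRNAs with a ChIRP-seq peak became 60 within 10 kb of the start and 33 with a score of at least 40, and the 226 with an overlapping ncRNA became 109 with promoter-associated ones only. Each of these is a stricter criterion by construction. The median was 3.65 with the row of highest input RPKM per gene and 3.61 with the row of lowest fold. With all 960 transcripts kept it was 3.70. Single libraries, no control capture and a table limited to enriched transcripts mean that neither replicate spread nor unspecific binding can be measured here, and below about 20 input reads the interval of a fold spans several-fold. No paired analysis was possible because each group holds 1 library.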
